A study of Mus musculus with 70 samples.

Results

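Constant CTCF sites are defined here as CTCF ChIP-seq peaks of the mouse forebrain (FB) at embryonic day (E) 12.5 that overlapped, by at least 1 bp, a peak in each of 10 other lists. At E12.5 these lists came from liver (LV), limb (LM), craniofacial prominence (CF) and, of the nervous system, from neural tube (NT), hindbrain (HB) and midbrain (MB). The others were the 4 lists of FB from E13.5 to E16.5, a day apart. Of the 43838 peaks of FB at E12.5, 28660 met the rule (65.4%), out of 87997 merged sites that the 12 lists held together. The list of FB at postnatal day 0 (P0) took no part in the choice. Presence in the lists chose the sites, and presence follows from peak strength, so strength is given below as a description without a test.

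CTCF, a DNA-binding protein with many zinc fingers, recognises a long motif that is not symmetric and therefore points along one strand. Together with the ring complex cohesin it holds the ends of chromatin loops, and loops form mostly between a pair of motifs that point towards each other, an arrangement called convergent. In imprinted loci, protocadherin clusters and Hox clusters, CTCF sites separate regulatory regions and guide promoters to enhancers.

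The tissues were taken from C57BL/6N mice, and no genetic change or treatment is named for any group. CTCF was mapped by ChIP-seq against input DNA and promoter contacts by PLAC-seq with an antibody to H3K4me3, a histone mark of active and poised promoters, in 12 combinations of tissue and stage (tissue-stages). Each tissue-stage had 2 libraries of each kind except FB at P0, with 1 CTCF library, and the titles call the CTCF libraries technical replicates in LV and in FB at E14.5. Each sample is a whole dissected tissue, in which fewer cells that bind CTCF at a site and less binding per cell cannot be told apart.

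The tissue labels were checked against promoter contacts of marker genes. The promoter of Alx1, a craniofacial homeobox gene, had 13 interactions in CF and 0 or 1 elsewhere, and Alx4 had 19 in CF and 2 to 7 elsewhere. Hoxc9, of the posterior body axis, had most in NT (25). Of the limb genes, Tbx4 had most in LM (12), whereas Tbx5 had 7 in LM and more in HB (14), MB (13), NT (10) and CF (10), against its label. En1, of the midbrain and hindbrain, had 31 in MB and 24 in HB, with 27 in NT, and En2 had 5 and 7, with 0 to 2 elsewhere. The liver markers were near 0 in LV as well, since Afp had 1 interaction in LV against 2 in NT, and Alb had 0 in all tissue-stages. Gata1 lies on the X chromosome, for which no interactions were called. LV had 21945 interaction calls, against 51264 to 79677 elsewhere, after the authors had brought all tissue-stages to the same number of read pairs. An interaction could be called only where either end held an H3K4me3 peak of that tissue-stage, so 0 can also mean not tested.

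The motif sequences of some constant sites show the range of the set, from the strongest and weakest sites to the steadiest and those that varied most with tissue. Each line gives the 19-base match to the CTCF motif in capitals with its flanks in lower case, 5′ to 3′ on the strand of the motif, from the RefSeq genome sequence GRCm38.p6 (mm10). Sites are named by the nearest protein-coding transcription start site (TSS), which does not say which gene a site acts on.
Nipsnap2, among the 5 strongest, chr5:129724987-129725015, minus strand: ggagcGGCCGCTAGGGGGAGCAGCgtggc
Rapgef1, among the 5 strongest, chr2:29619679-29619707, plus strand: ctccgGGCCATCAGGGGGCGCTGTggcgc
Ptbp3, among the 5 weakest, chr4:59543189-59543217, minus strand: ctgcaTGCCAGAAGAGGGCATCAGatcac
Cacna1c, among the 5 weakest, chr6:119116476-119116504, plus strand: cacatCACCAGAAGAGGGCACCAGatctc
Ccne1, among the 5 steadiest, chr7:38131444-38131472, minus strand: tgcatGGTCACAAGGGGGCTCAAAgttca
Rnf7, among the 5 steadiest, chr9:96492015-96492043, minus strand: gtagcAGCCACCAGGGGGCGCAAGatgaa
Pcdh8, lower in LV, chr14:79843453-79843481, plus strand: tcgggTTCCAGTAGGGGGCAGCTGccatt
Tsnaxip1, higher in LV, chr8:105835537-105835565, plus strand: gttttTACCTGCAGGGGGAAGCAAagagc
Col1a2, higher in LM and CF, chr6:4506395-4506423, minus strand: tttacCCCCTCCAGGGGGCGTATTtttat
Add2, lower in LM and CF, chr6:86028662-86028690, plus strand: gccggGCTCTGGAGGGGGCGCTGCgcact

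Both weak sites shown carry the AGAGGG form of the motif centre and lie in repeat-masked sequence. The other weak sites with a match, at Hhat in a repeat and at Kif3a outside repeats, carry AGAGGT. None of the 5 strongest and 5 steadiest lies in a repeat. Their motif centres vary, with AGGGGG at 2 of the 5 strongest and 3 of the 5 steadiest, and AGAGGG at the steady sites of Gtsf1l and Tbc1d8b. The most repeated 19-base match among constant sites, GGCCAGAAGAGGGCATCAG, stood at 226 of those counted, and the matches took 22373 different sequences. Among the other FB E12.5 peaks the most repeated was CACCAGAAGAGGGCATCAG, at 166 peaks, with 9334 different sequences.

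Constant sites were almost all still bound at P0, the stage the rule did not use, at which 99.5% overlapped a peak. The share was 92.2% of all FB E12.5 peaks and 78.4% of those outside the constant set. The P0 list was the longest of the 12, with 62782 peaks. The share with a P0 peak was lower with each list fewer, at 95.5% of the FB E12.5 peaks in 10 of the 11 lists, 61.7% of those in 5 lists and 17.2% of those in FB at E12.5 alone. The same order held for strength, which the deposited lists give as fold enrichment over input. The median fold enrichment in FB at E12.5 was 16.3 for constant sites, 6.89 for peaks in 10 lists and 4.25 for peaks of that list alone.

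**Figure D1:**
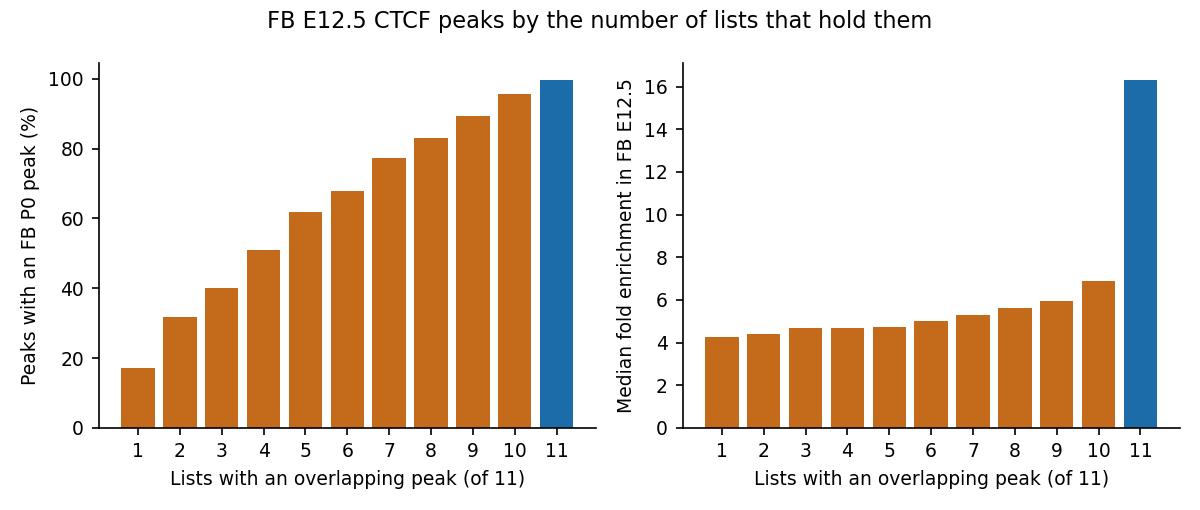
Peaks of FB at E12.5 by the number of the 11 rule lists that hold them, with the percent that overlap a peak of FB at P0 and the median fold enrichment over input in FB at E12.5. Both fall from 11 lists (99.5%, 16.3) to 1 list (17.2%, 4.25).

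At the edge of the rule, 4806 peaks were found in 10 lists and missed 1. LV was the missing list for 2115 of them, FB at E16.5 for 690, NT for 426 and FB at E14.5 for 31. The peaks missing only from LV had a median fold enrichment of 7.52 in FB at E12.5, and 24.3% lay within 1 kb of a TSS, against 16.2% of constant sites. A further 24.8% lay over 100 kb from any TSS, against 9.55%. Peaks missing from 1 list other than LV had a median of 6.58, and 44.0% of their motifs lay in repeats, against 13.7% of those missing from LV and 18.7% of those at constant sites.

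A CTCF motif was found in 94.8% of constant sites and 82.7% of the other FB E12.5 peaks. In windows of the same length 10 kb away the shares were 24.6% and 11.7%. The motif searched was a 19-base weight matrix estimated from 5000 FB E12.5 peaks, with the consensus NNCCANNAGGGGGCNNNNN, on both strands. Since motif matches go with strength and strength chose the sites, these shares are a description. At a stricter threshold the shares were 81.2% of constant sites and 61.5% of the others, with 8.09% and 3.45% of their windows. The motif lay a median of 13 bp from the summit, and 28.9% of constant sites held 2 or more matches, against 14.5% of the others. The search covered the whole peak, and constant sites were longer, with a median of 526 bp against 254 bp. The part of peak length in these shares was not tested. Forward motifs made up 49.7%. The 1480 constant sites without a match (5.16%) had a lower median fold enrichment, 11.1 against 16.6, and lay within 1 kb of a TSS in 36.4% of cases, against 15.1% of those with a match.

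Repeats marked off the weaker sites. The 5087 constant sites whose motif lies in repeat-masked sequence had a median fold enrichment of 11.3 in FB at E12.5, against 18.2 for the 22093 with a motif outside repeats. The share of motifs in repeats was 44.4% in the weakest decile of constant sites and 6.67% in the strongest. Sites with 2 or more matches had a median of 20.1, against 15.4 for those with 1. Among peaks with a motif match, a CG dinucleotide, the target of DNA methylation, was within the motif at 45.8% of constant sites and 37.7% of the others.

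Constant sites lay near genes about as often as the other FB E12.5 peaks did. A protein-coding TSS was found within 1 kb of 16.2% of constant sites and 15.3% of the others, against 8.13% of points 10 kb from constant sites. Within 3 kb the shares were 27.1%, 25.4% and 19.7%. The median distance to a TSS was 10966 bp for constant sites and 14515 bp for the others, and 9.55% of constant sites but 17.0% of the others lay farther than 100 kb. Counting each constant site once, 4643 lay within 1 kb of a TSS, 515 in coding exons, 612 in untranslated regions, 10173 in introns (35.5%) and 12717 between genes (44.4%). Sites at a TSS had a motif in 88.4% of cases and those between genes in 96.4%, while their median fold enrichments were close, 16.2 and 16.9.

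Along the chromosomes, constant sites lay a median of 30.0 kb apart, and the other FB E12.5 peaks, which are fewer, 75.7 kb. Density ran from 3.79 sites per Mb on the X chromosome to 17.9 on chromosome 11, leaving aside the Y chromosome with 2 constant sites. Neighbouring constant sites pointed the same way in 50.9% of pairs, towards each other in 24.6% and away from each other in 24.6%. Among the 6637 neighbour pairs within 10 kb, 54.8% pointed the same way, 17.4% towards each other and 27.8% away from each other.

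The median strength of constant sites was similar in most tissues and stages, while single sites typically ranged over more than 2-fold. Median fold enrichment in the 11 lists ran from 13.8 in HB to 17.1 in MB, with 25.9 in FB at E14.5 standing above the rest, and was 12.98 in FB at P0. The same FB E12.5 peaks outside the constant set had medians of 5.24 to 7.88 where they were found. After each list had been scaled by its median over constant sites, the SD of log2 strength over the 11 lists had a median of 0.37 per site, with 5% of sites below 0.22 and 5% above 0.59. It was under 0.5 at 86.0% of sites. The SD was 0.39 in the weakest decile and 0.33 in the strongest. Between its highest and lowest list, a site differed by a median of 2.09-fold to 2.50-fold, depending on the decile. Sites without a peak in any of these lists are left out by the rule, which limits the variation seen here.

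**Figure D2:**
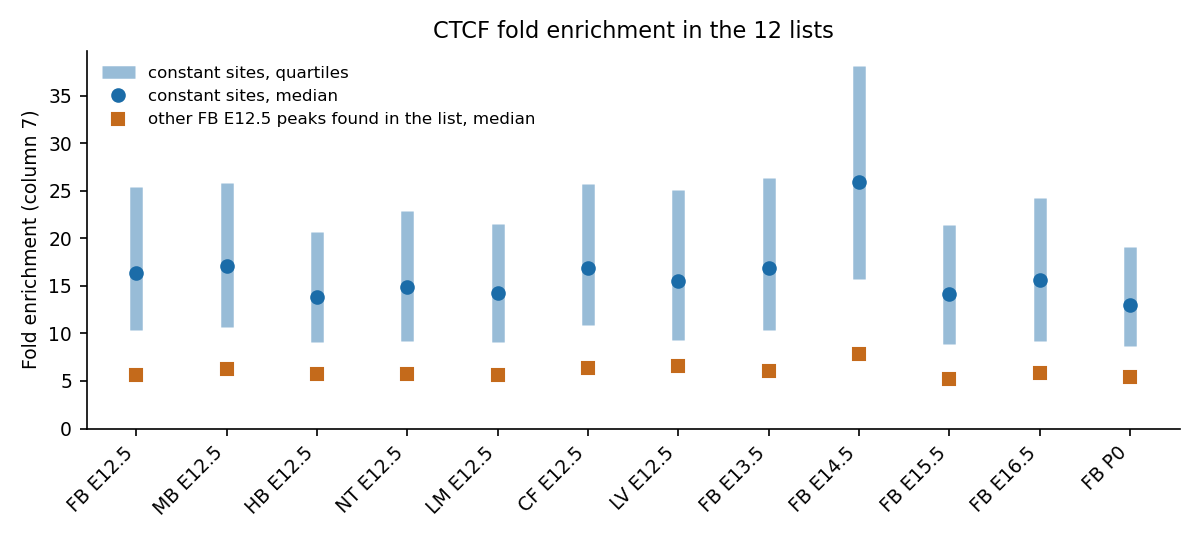
Fold enrichment over input in each of the 12 lists, as medians with quartiles for constant sites and as medians for the other FB E12.5 peaks found in the list. Constant sites have medians of 12.98 to 25.9 and the other peaks of 5.24 to 7.88, and FB at E14.5 stands highest in both.

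The steadiest site lay 24047 bp from the TSS of Ccne1, which encodes cyclin E1, with a fold enrichment between 18.6 and 23.2 in 10 of the lists and 31.8 in FB at E14.5. At Rnf7, a RING subunit of cullin ubiquitin ligases, the values were 23.3 to 32.0 in the same 10 lists and 39.98 in FB at E14.5. Ankrd50, Gtsf1l and Tbc1d8b made up the rest of the 5 steadiest, and none of these 5 sites lay within 10 kb of a TSS. The strongest site lay 23 bp from the TSS of Nipsnap2, with 94.5 in FB, 90.9 in MB, 61.7 in HB, 90.6 in NT, 83.6 in LM, 95.7 in CF and 94.7 in LV at E12.5. It was followed by sites at Rapgef1, an exchange factor for the GTPase Rap1, Fam129b, Arid3a and Ddr1, a collagen receptor, with E12.5 values between 29.6 and 104.6. Those of the weakest site, in an intron of the splicing regulator Ptbp3, were 3.53 to 5.23 in the other E12.5 tissues and 16.1 in LV.

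The sites with the largest variation came from peaks that do not share a summit. At 26812 constant sites (93.6%) all 11 summits lay within 100 bp of that in FB at E12.5, and at 1848 at least 1 did not. All 104 sites with an SD above 1 were among the latter. At the site nearest Abcd4, the FB E12.5 value was 5.02 and the MB value 2.98, whereas the other 9 lists gave 41.8 to 78.3. The sites nearest Zfp90, Nags, Carm1 and Txnl1 followed, also with summits apart. Sites whose summits agree are therefore given separately below, a restriction added after the values had been seen. Among them the SD reached 0.88 at most, near Cand1, followed by Pcdh8, Emb, Astn2 and Fgfrl1.

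LV departed most. Between pairs of lists, log2 strength over 28525 constant sites correlated with r = 0.55 to 0.70 when LV was one of the pair and with 0.74 to 0.87 otherwise, as a description over sites that share genome and libraries. Against the median of the other rule lists, 1657 constant sites were at least 2-fold higher in LV (5.78%) and 2319 at least 2-fold lower (8.09%). Over all sites compared, the shares were 7.01% and 6.97%. In FB at E14.5, 974 were lower (3.398%, against 4.36% of all sites compared). The other lists and directions had at most 2.69% of constant sites, and at most 2.46% of all sites compared. Technical replicates underlie the lists of both LV and FB at E14.5, so for LV the tissue and its single sample cannot be told apart.

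At Pcdh8, a protocadherin of the embryonic nervous system and mesoderm, the site 72239 bp from the TSS had a fold enrichment of 3.63 in LV and 10.6 in CF. In the other E12.5 tissues it was 14.7 to 29.0, and in the later FB stages of the rule 19.5 to 42.6. Nepro, Igsf11, Astn2, an astrotactin of neuronal migration, and Tm4sf1 followed among sites with agreeing summits, with 2.58 to 4.19 in LV. In the opposite direction, the site in an intron of Tsnaxip1 had 38.4 in LV and 4.01 to 13.3 in the other 10 lists. Those at Wbp2, Serpinb9, an inhibitor of granzyme B, Tmem79 and Clic4 had 25.4 to 38.9 in LV and at most 17.4 elsewhere. At all of these, LV lay outside the range of the other 10 lists. Such sites that also differed at least 2-fold from the mean log2 strength of the other 10 lists numbered 1782 higher (6.22%) and 2120 lower (7.4%). The mean here takes the place of the median used above, so these numbers are not a part of those. Only constant sites have a value in all 11 lists, so no other background exists for them.

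LM and CF differed from the 4 neural tissues at few sites. Values did not overlap and means differed at least 2-fold at 59 constant sites that were higher in LM and CF (0.206%) and 55 that were lower (0.192%), against 0.272% and 0.227% of all FB E12.5 peaks compared. With agreeing summits, 28 and 50 remained. At Col1a2, a chain of type I collagen, fold enrichment was 20.6 in LM and 23.8 in CF, against 9.45 in FB, 8.66 in MB, 4.43 in HB, 10.4 in NT and 8.80 in LV. The other sites higher in LM and CF with agreeing summits lay nearest Sept9, Pias3, Itga5, the fibronectin receptor subunit, and 4933416C03Rik.

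Sites lower in LM and CF lay at promoters more often than constant sites as a whole, as a description. Of the 55 lower sites, 49.1% lay within 3 kb of a TSS, against 27.1% of all constant sites. Add2, an adducin of the membrane skeleton, had 19.1 in FB, 25.5 in MB, 22.1 in HB and 20.8 in NT, against 4.65 in LM, 11.5 in CF and 8.08 in LV, 8 bp from its TSS. Kcnc1, a voltage-gated potassium channel of fast-firing neurons, had 15.4 to 19.7 in the neural tissues, 4.26 in LM and 9.36 in CF. Angpt2, a ligand of the endothelial receptor Tie2, had 11.1 to 15.5 in the neural tissues, 5.19 in LM and 4.50 in CF. None of the 3 sites had LM or CF values within the neural range.

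Between early and late forebrain, values at E15.5 and E16.5 did not overlap those at E12.5 and E13.5 and were at least 2-fold higher at 291 constant sites (1.02%, against 1.57% of the peaks compared) and lower at 223 (0.778%, against 0.684%). With agreeing summits the numbers were 148 and 214, so the higher sites depended more on neighbouring peaks. The site nearest Ahi1, a protein of the ciliary transition zone, had 4.13 and 5.27 early and 9.35 and 21.02 late, with 22.4 at E14.5 and 7.45 at P0. At Baiap2l1 the values were 40.4 and 38.3 early and 13.5 and 11.05 late, and 29.5 at P0. Sites at Dnah10, Gcn1l1, Ccn5 and Robo2, an axon guidance receptor, were likewise lower late. Without scaling by list, the P0 values of the Ahi1 and Baiap2l1 sites lay between the early and the late ones.

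Loci known for CTCF differed in how many of their FB E12.5 peaks were constant, against 65.4% of all these peaks. In the Hox clusters, whose genes pattern the body axis, 25 of 31 peaks were constant (80.6%), with all 3 in Hoxc, 9 of 10 in Hoxb, 7 of 9 in Hoxd and 6 of 9 in Hoxa. The 3 motifs of Hoxc pointed forward, and Hoxd, read from Evx2 to Hoxd4, had reverse motifs followed by 4 forward ones. The site 324 bp from the TSS of Hoxc10 had its highest values in NT (42.9) and LM (29.7), with 10.5 to 27.3 in the other 9 lists. In the protocadherin cluster only 14 of 37 peaks were constant, and 5 of these 14 had a motif match. These counts follow from the rule and are a description.

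At Igf2 and H19, an imprinted pair in which CTCF binds the unmethylated maternal control region, 5 of 6 peaks were constant. The 2 sites upstream of H19 are shown because their motifs are near copies of each other.
Upstream of H19, first site, chr7:142580301-142580329, minus strand: gacgaTGCCGCGTGGTGGCAGTACaatac
Upstream of H19, second site, chr7:142582026-142582054, minus strand: ggagtTGCCGCGTGGTGGCAGCAAaatcg

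Fold enrichment at the first of these was 12.5 in FB, 6.26 in MB, 16.4 in HB, 13.8 in NT, 11.9 in LM, 15.1 in CF and 6.27 in LV. At the second it was 12.99, 13.2, 16.4, 7.46, 13.3, 18.2 and 6.19 in the same order. LV and, at the first site, MB were lowest. The beta-globin locus went the other way. The only constant site of the beta-globin locus, 6884 bp from Hbb-bt, had 33.2 in LV, a site of red cell formation in the embryo, and 9.94 to 25.8 in the other 10 lists. Both constant sites of the alpha-globin locus, at Hbq1b and Hbq1a, have the same motif and flanks, shown because reads from such copies may be shared between them.
Hbq1b, chr11:32286924-32286952, minus strand: caagaGGCCGCCAGGGGGCGCTGCatcgt
Hbq1a, chr11:32300029-32300057, minus strand: caagaGGCCGCCAGGGGGCGCTGCatcgt

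At the genes of the CTCF and cohesin machinery, 22 of 35 peaks were constant (62.9%), near the 65.4% of all FB E12.5 peaks. They were all 4 peaks at Ctcf, 5 of 6 at the cohesin loader Nipbl, 4 of 6 at Pds5b, 2 of 5 at Smc3, 2 of 4 at Stag1, 1 of 2 at Stag2, the only 1 at Pds5a and 3 of 7 at the germline paralog Ctcfl. The regions of Rad21, Smc1a and Wapl held no FB E12.5 peak within 10 kb of the gene. The Ctcf promoter itself was bound 147 bp from the TSS, with 15.8 in FB at E12.5 and 18.7 to 39.8 in the other 10 lists.

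Interactions are measured independently of the rule, as pairs of 10-kb bins with more PLAC-seq read pairs than expected, 20 kb to 1 Mb apart on autosomes. These calls cover only pairs in which either bin held an H3K4me3 peak of the same tissue-stage. As the paper states, a pair called in a tissue might not be testable in another. The part of this in recurrence and in differences between tissue-stages was not tested. Constant sites filled 23965 such bins. In each tissue-stage these were compared with the bins that held CTCF peaks of its own list but no constant site, 10243 to 21286 of them. Each comparison used an exact 2-sided permutation test that flips the sign of the difference in each of the 12 tissue-stages, with p-values adjusted by Benjamini-Hochberg over 7 tests. No p under 0.000488 can be reached. The tissue-stages share the same bins and 6 of them are FB, so the p-values measure only the spread between these samples.

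Constant bins took part in interactions more often than other CTCF bins. A median of 51.7% of constant bins had at least 1 interaction (30.9% in LV to 60.5% in FB at P0), against 35.5% of the other bins (21.03% to 44.1%). The difference was 15.2 percentage points on average (SD 2.17) and positive in 12 of 12 tissue-stages (exact permutation test, p = 0.000488, adjusted p = 0.00057). Interactions per bin were 2.07 and 1.15, a difference of 0.818 (SD 0.154) in the same direction in 12 of 12 (exact permutation test, adjusted p = 0.00057). Constant bins held a protein-coding TSS in 33.5% of cases and the others in 26.6% to 35.3%, and held 1.31 to 1.52 CTCF peaks against 1.06 to 1.17. In bins with 1 CTCF peak the difference in interactions per bin was 0.429, and in calls of single replicates, which were not downsampled, it was 0.484 without replicate 2 and 0.463 without replicate 1, each higher in 12 of 12.

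The difference in contacts went with CTCF strength. Within quintiles of fold enrichment, the share of bins with an interaction differed by 0.386 percentage points on average, higher for constant bins in 6 of 12 (exact permutation test, p = 0.591). Interactions per bin were lower at constant bins by this measure, by 0.394 on average, with 1 of 12 tissue-stages higher (exact permutation test, p = 0.00439). In the weakest quintile 34.9% of constant and 35.4% of other bins had an interaction, and in the fourth 50.4% and 52.8%. In the strongest, with 66.3% and 50.4%, only 4 tissue-stages had enough other bins to compare. Quintiles do not make strength equal. In the second quintile of FB at E12.5 the median fold enrichment was 7.83 at constant and 6.89 at other bins.

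**Figure D3:**
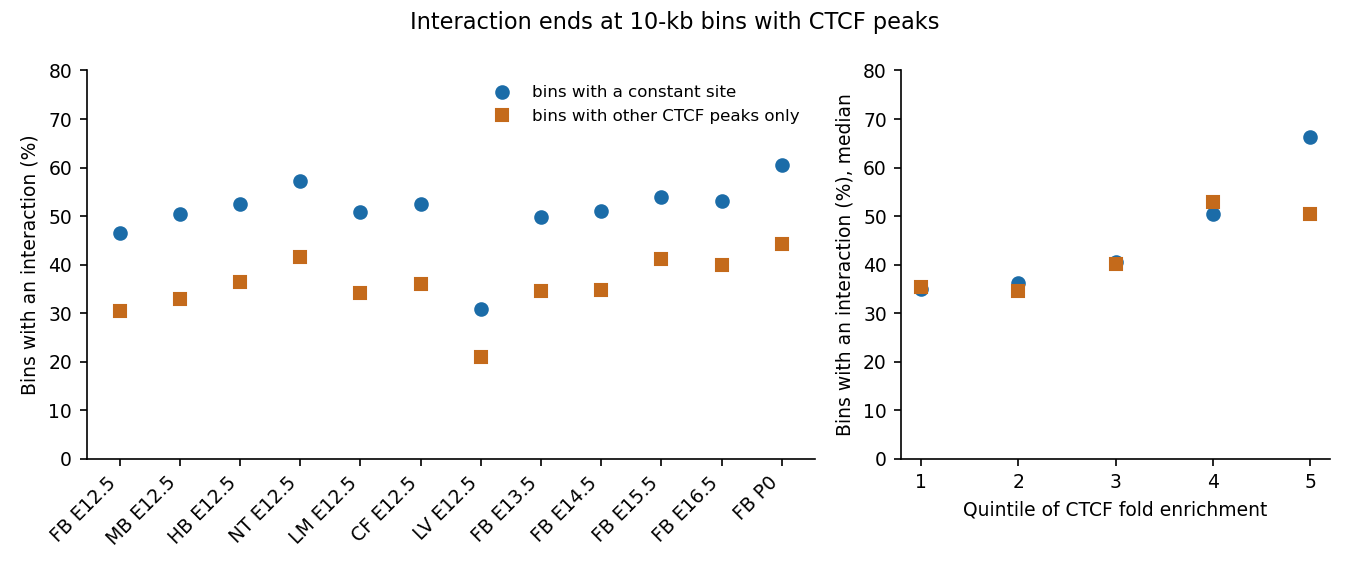
Percent of 10-kb bins with at least 1 interaction, for constant CTCF bins and other CTCF bins, by tissue-stage and by quintile of fold enrichment. Constant bins lie above other bins in all 12 tissue-stages (medians 51.7% and 35.5%), while within the 4 lower quintiles the medians of both kinds lie close together.

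Motif direction differed as well. Where each end of an interaction had motifs of a single direction, a median of 56.0% of interactions between constant bins were convergent (52.8% to 64.1%), against 34.4% between other CTCF bins (32.2% to 37.7%). The difference was 21.6 percentage points (SD 2.38), higher in 12 of 12 (exact permutation test, p = 0.000488, adjusted p = 0.00057). Interactions also followed the motif. At constant bins with forward motifs 73.2% to 80.9% of interactions ran to higher coordinates, and at those with reverse motifs 19.8% to 25.3%. The gap between these shares had a median of 51.8 percentage points at constant bins and 14.7 at other bins, a mean difference of 36.1 (SD 2.53; 12 of 12; exact permutation test, adjusted p = 0.00057).

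Averaged within quintiles of strength these differences were smaller and kept their direction, an analysis chosen after seeing the data. The convergent share differed by 11.6 percentage points (12 of 12; exact permutation test, p = 0.000488) and the gap by motif direction by 7.97 (11 of 12; exact permutation test, p = 0.00195). In the second quintile that gap went the other way, with medians of 12.999 percentage points at constant and 16.1 at other bins. For the convergent share, 9 tissue-stages had enough pairs in the third quintile, and the stronger quintiles gave no value. Interactions were placed in quintiles by their weaker end. The part of strength in the differences that remained within quintiles was not tested.

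Interactions between constant bins were also found again more often. They recurred in a median of 6.06 of the 11 other tissue-stages, against 4.56 for those between other CTCF bins, a mean difference of 1.60 (SD 0.468; 12 of 12; exact permutation test, adjusted p = 0.00057), and of 0.879 within quintiles (12 of 12; exact permutation test, p = 0.000488). The median ratio of observed to expected read pairs was 3.70 and 3.34, a difference of 0.368 (SD 0.0745; 12 of 12; exact permutation test, adjusted p = 0.00057). Within quintiles this difference was -0.0868 (2 of 12 higher; exact permutation test, p = 0.253). Interactions between constant bins spanned a median of 260 kb against 280 kb, 12.5 kb less on average (SD 12.9; shorter or equal in all tissue-stages except LV; exact permutation test, adjusted p = 0.0166). This call did not hold without replicate 1 (exact permutation test, p = 0.0996), with only motif-bearing peaks (p = 0.0547, exact) or over the 7 tissues at E12.5 (p = 0.125, exact).

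**Figure D4:**
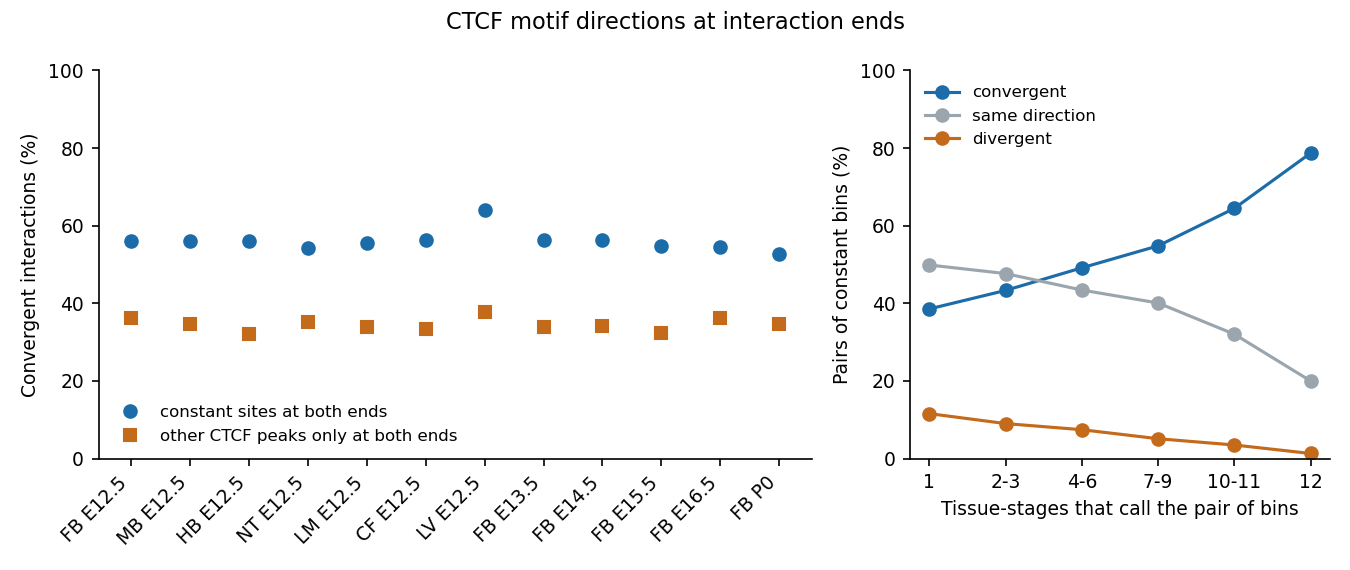
Convergent share of interactions between constant bins and between other CTCF bins by tissue-stage, and motif arrangement of pairs of constant bins by the number of tissue-stages in which the pair was called. The convergent share of constant pairs is 38.6% of pairs called in 1 tissue-stage and 78.7% of pairs called in all 12.

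Over all tissue-stages, 28811 different pairs of bins had constant sites at both ends, 11.6% of the 248620 pairs called. Of these, 1181 (4.10%) were called in all 12 tissue-stages and 36.4% in 1. Among the 2224 pairs with other FB E12.5 peaks at both ends, 1.26% were called in all 12, and among pairs without a constant site at either end 0.348%. Convergent constant pairs were called in all 12 in 6.73% of cases, pairs in 1 direction in 1.80% and divergent pairs in 0.611%. These are counts over pairs, many of which share bins, and are given without a test.

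Some constant pairs had high ratios of observed to expected read pairs in every tissue-stage. The pair between the bins nearest Ubash3b and Sorl1, 730 kb apart and convergent, had a ratio of 8.56 in LV and 18.2 to 28.9 in the other 11. Emx2, a homeobox gene of the forebrain, was paired with a bin near Fam204a at 690 kb, with 8.42 in LV and 14.8 to 29.3 elsewhere. Pairs inside Sox6, from Aldh8a1 to Sgk1 and from 1600014C23Rik to Vegfa, the vascular growth factor, were likewise called in all 12. These pairs were chosen after their values had been seen, as were all other named pairs.

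Other constant pairs were called in some tissues only, and a pair without a call in a tissue may not have been testable there. Among the 23147 constant pairs called at E12.5, 1415 (6.11%) were in all 7 tissues, against 2.02% of all pairs called. The 4 neural tissues and no other shared 312 (1.35%, against 1.14%), LM and CF alone 344 (1.49%, against 1.75%), LM, CF and LV alone 57 (0.246%, against 0.18%) and LV alone held 944 (4.08%, against 3.91%). Apart from pairs in all tissues, these shares lay near the background. The pair from Gulp1 to the promoter bin of Col3a1, a fibrillar collagen of connective tissue, had ratios of 7.24 in LM and 13.6 in CF and was called nowhere else. A bin near Sox2, a transcription factor of neural progenitors, was paired with one near Atp11b in the 4 neural tissues and all later FB stages, with ratios of 3.56 to 12.3.

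In the forebrain 3203 of 21761 constant pairs (14.7%) were called at all 6 stages, against 7.04% of all pairs. Pairs present at E12.5 and E13.5 and absent from E15.5 on numbered 271 (1.25%, against 1.41%), and the opposite pattern 716 (3.29%, against 2.65%). A pair from Med13l to the promoter bin of Tbx3, 900 kb away, had ratios of 12.4 and 21.6 at the early stages and was not called from E14.5 on. Depdc1b to Pde4d, 870 kb and convergent, was called only at E15.5, E16.5 and P0, with 10.9, 15.3 and 15.1.

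Most constant bins had contacts in some tissue-stages and not in others. Of the constant bins, 3819 (15.9%) had an interaction in all 12 tissue-stages, 3853 (16.1%) in none and 16293 in some. Among the other FB E12.5 CTCF bins, 5.71% had one in all 12 and 30.9% in none. Constant bins with contacts in all 12 held a TSS in 50.0% of cases, against 17.2% of those with none, and had a median fold enrichment of 20.996 against 13.2. Their SD of log2 strength was 0.36 and 0.37, and 94.6% and 95.8% of their sites had a motif. PLAC-seq enriches contacts of promoters that carry H3K4me3, so bins without contacts here may have contacts that this assay does not capture.

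The constant bins with the most interactions held gene promoters, 3 of them of Sox transcription factors. The median for Sox11 over all tissue-stages was 89 interactions, from 75 to 114 outside LV and 2 in LV. Rnd3, a small GTPase, had a median of 85, Sox4 75, Mn1 70 and Sox6 69, with 10 to 46 in LV. Relative to the number of calls in each tissue-stage, the steadiest bins were those of Enc1, Adm, which encodes adrenomedullin, Fnbp1l, Col4a1 and Trio. Enc1 had 54 to 67 interactions outside LV and 21 in LV. The most variable was Irx1, an Iroquois homeobox gene, with 46 in MB, 34 in HB, 27 in NT, 19 in CF, 11 in FB, 6 in LM and 1 in LV at E12.5. Irx2 varied in the same way, with 33 in MB, 42 in HB, 32 in NT and 1 in LV.

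Counts of contacts at the Hox clusters varied between tissues and are not scaled by the number of calls. At E12.5 the calls were 71456 in NT, 56013 in LM, 51264 in FB and 21945 in LV. The part of these totals in the counts below was not tested. Constant bins of Hoxd took part in 306 interactions in NT and 278 in LM, against 179 in FB and 67 in LV at E12.5, and 13 of their pairs with other constant bins were called in all 12 tissue-stages. Those of Hoxa had 188 in NT and 132 in LM, against 65 to 82 in the other E12.5 tissues apart from LV, with 34. In the other clusters NT was again highest among the E12.5 tissues, but LM was low. Hoxb had 198 in NT and 52 in LM, with 94 to 166 in FB, MB, HB and CF and 49 in LV. Hoxc had 68 in NT and 23 in LM, with 32 to 37 in those 4 tissues and 17 in LV. Between Sox9 and Kcnj2, a gene desert with long-range enhancers of Sox9, LM had 135 interactions and the others 4 to 67. The constant bin of the beta-globin locus had 3 interactions in LV and 0 in every other tissue-stage.

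With the replicates combined, the share of interaction ends at constant bins was not separated between neural and other tissues beyond its spread. It was 41.1% ± 0.534 (SD, n = 4) in the neural tissues at E12.5 and 43.4% ± 3.55 (SD, n = 3) in LM, CF and LV (difference -2.25 percentage points, exact permutation test over 35 splits, p = 0.171). LV had 47.5% and all the others 40.04% to 41.7%, and without LV the difference was -0.20 (exact permutation test, p = 0.667). The call depended on the libraries, since without replicate 2 the difference was -2.64 (exact permutation test, p = 0.0286) and without replicate 1 it was -2.61 (exact permutation test, p = 0.114). In LV 21.7% of interactions had constant sites at both ends, against 15.2% to 16.8% elsewhere.

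Contacts were also compared between bins whose constant sites, with agreeing summits, departed in strength by tissue. The bins were chosen by strength alone, the comparison was added after seeing the data, and no test with so few arrangements could pass the threshold of 0.05. The 1898 bins with sites lower in LV had an interaction in 18.02% of cases in LV and in 47.8% to 64.5% in the other 11 tissue-stages. The 1565 bins with sites higher in LV had one in 41.7% in LV and in 38.7% to 50.7% elsewhere. Among all constant bins the shares were 30.9% in LV and 46.6% to 60.5% elsewhere. A TSS lay in 38.3% of the higher and 26.3% of the lower bins, and the part of promoters in these values was not tested. The difference between the sets was 23.7 percentage points in LV and -19.6 to -4.28 elsewhere, as a description, since LV is a single tissue-stage and its CTCF libraries are technical replicates.

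For LM and CF the bins were few. The 28 bins with sites higher in LM and CF had an interaction in 71.4% of cases in LM and 78.6% in CF, against 42.9% to 53.6% in the neural tissues. For the 50 bins with lower sites the shares were 32% and 40%, against 50% to 60%. The difference between the sets was 39.4 and 38.6 percentage points in LM and CF and -17.1 to -6.43 in the neural tissues (exact permutation test, p = 0.0667, the smallest that 15 arrangements allow). It was positive in LV (5.43) and in FB at P0 (7.86) as well, and negative at the other FB stages. A TSS lay in 35.7% of the higher and 50.0% of the lower bins, and the part of promoter activity in these differences was not tested. For the sites that changed between early and late forebrain, the difference was 16.6 and 21.6 percentage points late and 5.49 and 11.3 early, positive at both (exact permutation test, p = 0.333, the smallest that 6 arrangements allow for a 2-sided test).

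**Figure D5:**
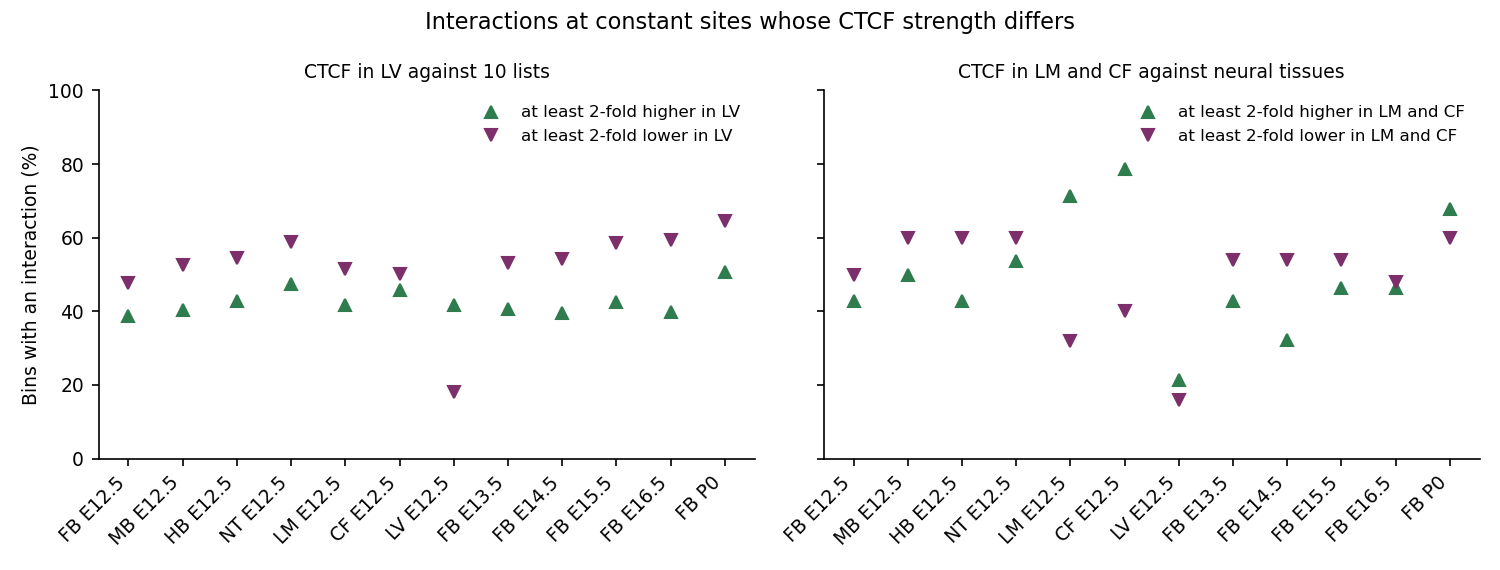
Percent of bins with an interaction in each tissue-stage, for bins whose constant sites were stronger or weaker in LV (1565 and 1898 bins) and in LM and CF (28 and 50 bins). Bins with weaker sites in LV have an interaction in 18.02% of cases in LV and in 47.8% or more elsewhere, and bins with stronger sites in LM and CF lie above those with weaker sites in LM, CF, LV and FB at P0.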

How the data were processed

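CTCF ChIP-seq peaks were called by the authors on mm10 with MACS2 against input, and the deposited lists keep those pooled-library peaks that were found again in both replicates, except in FB at P0, with a single library. In the deposited lists, column 7 was read as the fold enrichment over input (a ratio) and column 9 as the −log10 q-value. PLAC-seq calls were made by the authors with MAPS in 10-kb bins after combining the replicates and downsampling, and the deposited calls give the observed count of read pairs, the expected count as a modelled signal, and the false discovery rate as a p-value adjusted for multiple tests. Calls of single replicates, not downsampled, were used as alternatives. The authors searched for the motif with FIMO and a published matrix, which was not used here.

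The members and lists were chosen with earlier results of these data known. Overlaps of 1 bp counted. The strongest overlapping peak gave a site's strength in each list, scaled by the median over constant sites. A site was assigned to the bin of its midpoint. The 19-base motif matrix was estimated from 5000 peaks and matches were called at a per-position p of 0.0001, or 1e-05 as the stricter setting. The result for 1 of the marker genes is not reported here. Sequences on chromosome 18 were neither printed nor counted among repeated matches. TSS and gene models came from GENCODE M21, sequence and repeat masking from RefSeq GRCm38.p6. Quintiles of column 7 with at least 20 bins or interactions of each kind were compared. At most 5 sites or bins per group were named, by the largest or smallest median strength, SD or difference, with the loci listed in the report. The restriction to summits within 100 bp, the within-quintile comparison of 5 measures, the settings without LV and the named pairs were added after the data had been seen. Tests were exact permutation tests over tissue-stages in Python 3.11.15 with numpy 2.4.6, pandas 2.3.3 and scipy 1.17.1, and were tested on simulated data. Alternatives covered the overlap, the q-value, the starting list, a second set of deposited lists, single replicates, motif settings and TSS windows. Column 7 holds no read counts, so no counting interval is given for it. Replicates are separate samples by their titles except the technical ones named in the report.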

Additional observations from a re-analysis of the deposited data

Results flagged for a closer look

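Single tissue-stages lay far from the rest of their group in 11 of the values tested, over 30 groups of samples. Chance gives about 1 in 20 for independent values without ties, whereas many of these values come from the same interaction calls. LV was the sample in 8 of the 11, among the 7 tissues at E12.5. Constant bins made up 47.5% of its interaction ends (others 40.5% to 41.7%), and 21.7% of its interactions had them at both ends (15.5% to 16.8%). An interaction was found at 30.9% of its constant bins (46.6% to 57.2%), at 0.869 per bin (1.75 to 2.41). Its convergent share was 64.1% (54.2% to 56.3%), its gap by motif direction 61.1 percentage points (48.9 to 52.7), its median ratio 3.15 (3.58 to 3.74) and its median distance 170 kb (240 to 260 kb). LV also had the fewest calls, and the part of that number in these values was not tested.

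Among the 4 neural tissues, NT had a convergent share of 54.2% (others 56.0% to 56.2%) and MB a median distance of 250 kb (260 kb in each of the others). Distances move in steps of 10 kb, so with the others tied a single step was enough to flag MB. FB at E14.5, whose CTCF libraries are technical replicates, had a median fold enrichment of 25.9 among the 6 FB stages (others 12.98 to 16.9).

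Of 7 differences between constant and other CTCF interactions compared between neural and non-neural tissues, 2 had an unadjusted p under 0.05. The distance was 22.5 kb shorter for constant interactions in the neural tissues and 0 kb different in the others (difference -22.5 kb, exact permutation test over 35 splits, p = 0.0286). Recurrence was higher by 1.34 tissue-stages in neural and by 2.12 in the other tissues (difference -0.779, exact permutation test, p = 0.0286). Both p-values are the smallest the design allows, and after Benjamini-Hochberg adjustment over the 7 comparisons both were 0.1 and missed the threshold.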

How the results depend on the processing

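Of 106 alternative values, 94 kept direction and side of the threshold or moved by less than the limit set. Comparing within quintiles of CTCF strength changed most. Within quintiles of column 7, the difference between constant and other bins in the share with an interaction was 0.386 percentage points (exact permutation test, p = 0.591), that in interactions per bin turned to -0.394 and that in the observed to expected ratio to -0.0868. The shorter distance lost its call with replicate 2 alone, with only peaks that hold a motif (-10 kb, exact permutation test, p = 0.0547) and over the 7 tissues at E12.5 (-12.9 kb, exact permutation test, p = 0.125), and ranged from -12.5 to -11.7 kb with either replicate left out. The number of constant sites ran from 26358 (second deposited lists) to 33466 (10 of 11 lists), and was 30775 without the LV list. The motif share was 93.0% with a matrix from non-constant peaks and 81.2% at the stricter threshold. Within 1 kb of a TSS lay 16.2% of sites, and within 3 kb of the TSS of any gene 34.0%.

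Replicate numbers do not pair the tissues, since over 21 pairs of tissues the deviations correlated with r = -0.12 to 0.07 and 0 pairs were above 0.1. The difference between neural and non-neural tissues in the share of ends was -2.63 percentage points with a replicate block (exact permutation test over 1225 arrangements, p = 0.00898). These arrangements count the libraries of a tissue as separate units, so that p-value does not measure the spread between tissues. Over 35 splits of whole tissues, with replicates combined, the exact permutation test gave p = 0.171. With either replicate left out the difference was -2.64 to -2.61 (exact permutation test, p = 0.0286 without replicate 2 and 0.114 without replicate 1), from calls that were not downsampled. The cause of these changes was not tested.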
